A study of Mus musculus with 19 samples.

Results

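The levels of 10 genes characteristic of fat cells were read in kidney RNA: Cfd, Adipoq, Lep, Retn, Plin1, Cidec, Adrb3, Thrsp, Fabp4 and Ucp1. They are 10 of the 40413 genes in the table, of which 29359 had a count in the 18 libraries used. The set was chosen by symbol with measured values of these data known: Cfd, Thrsp, Adipoq, Cidec and Adrb3 had been noticed as low in treated BPH/2J kidneys against treated BPN/3J kidneys, where 1 library was far above the rest. The members' values in that contrast, and in the contrasts that share its treated BPH/2J or BPN/3J libraries, are therefore given as a description with no test.

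Polyadenylated RNA from adult mice of the hypertensive strain BPH/2J and its normotensive counterpart BPN/3J was sequenced, with 1 library per mouse. Mice received Cmpd17b, a small molecule that acts on formylpeptide receptors, by intraperitoneal injection at 50 mg/kg/day for 28 days, or vehicle once daily for the same time. The groups were BPH/2J with Cmpd17b (n = 4), BPH/2J with vehicle (n = 5), BPN/3J with Cmpd17b (n = 5) and BPN/3J with vehicle (n = 4). A further treated BPH/2J library, replicate 1, is left out of the 18: its RNA was dominated by heart muscle genes, and kidney genes were almost missing. The controls differ from the treated mice of their strain only by the compound, per the labels, and the strains are inbred lines that differ at many loci.

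Total counts ran from 21400119 to 40998662 per library, and all libraries carry batch label 2. Proximal tubule genes summed to 3936 to 7430 CPM (counts per 1e6 counts of the library, after TMM scaling) in the 18 libraries, so all held abundant kidney RNA. Treated BPH/2J libraries also held heart muscle transcripts: 6 of 6 listed genes were detected and summed to 81.7 to 114 CPM, against 2.42 to 5.73 CPM in vehicle BPH/2J libraries. The part of these transcripts in the differences given here was not tested.

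Fat cells store triglyceride in lipid droplets and release hormones and fatty acids. The kidney lies in a bed of fat, and fat also fills the renal sinus around the pelvis. White fat cells secrete leptin, resistin, adiponectin and adipsin, whereas brown fat cells burn fatty acids through the uncoupling protein encoded by Ucp1. Fabp4, a fatty acid binding protein, is also made by capillary endothelium and macrophages, so its presence in kidney is not specific to fat cells.

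Promoter sequences are shown for the 3 members in which a searched fat cell or promoter motif was found in the 250 bases before the annotated start. They come from the RefSeq promoter table of build GRCm38.p6, an earlier build than the one the counts were aligned to, and 8 of the 10 members had an entry. Capitals mark motif matches on either strand, in a run written 5′ to 3′ on the gene's own strand. Lep, on the plus strand at chr6:29059971-29060220, held the C/EBP palindrome TTGCGCAA, bound by CCAAT/enhancer-binding proteins.
Lep: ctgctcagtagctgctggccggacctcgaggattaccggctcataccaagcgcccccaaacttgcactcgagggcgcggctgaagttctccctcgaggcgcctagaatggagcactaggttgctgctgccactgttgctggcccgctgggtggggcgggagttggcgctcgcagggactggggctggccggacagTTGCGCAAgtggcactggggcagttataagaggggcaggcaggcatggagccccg
Thrsp, on the minus strand at chr7:97417551-97417800, held the pentamer CCAAT in both orientations.
Thrsp: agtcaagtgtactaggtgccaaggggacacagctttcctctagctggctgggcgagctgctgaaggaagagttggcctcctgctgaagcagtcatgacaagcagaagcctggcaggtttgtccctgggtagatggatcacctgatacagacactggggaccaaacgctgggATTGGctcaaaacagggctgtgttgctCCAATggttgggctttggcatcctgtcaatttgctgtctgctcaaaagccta
Adipoq, on the plus strand at chr16:23146286-23146535, held CCAAT 3 times near the start.
Adipoq: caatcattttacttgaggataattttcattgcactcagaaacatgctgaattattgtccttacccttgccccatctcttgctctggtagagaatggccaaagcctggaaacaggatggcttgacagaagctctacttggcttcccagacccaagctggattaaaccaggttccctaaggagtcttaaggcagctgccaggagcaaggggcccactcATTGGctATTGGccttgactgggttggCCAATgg
The palindrome was present in 0.164% of 32851 promoters of the same length, and CCAAT in 33.8% of them. The sequence TATAAA, present in 12.4% of promoters, and the PPAR direct repeat (AGGTCA, any base, AGGTCA), present in 0.0335%, were in no member's window. These matches are descriptions of the letters only, and CCAAT is a common element.

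Most counts of the fat cell genes came from 3 libraries. BPN/3J Cmpd17b replicate 1 was the highest of 18 for 9 of the 10 members, and BPH/2J vehicle replicate 4 was second for the same number and highest for Fabp4. BPN/3J vehicle replicate 2 was the third highest for 7 members. Between 71.9% (Thrsp) and 86.9% (Plin1) of the counts of each member other than Fabp4 lay in these 3 libraries, which belong to 3 different groups. For the 9 members without Fabp4 the summed level was 91.3 CPM in BPH/2J vehicle replicate 4, 162 CPM in BPN/3J Cmpd17b replicate 1 and 29.0 CPM in BPN/3J vehicle replicate 2. Elsewhere the sum was 1.24 to 2.95 CPM in treated BPH/2J kidneys and 2.51 to 14.2 CPM in the other 4 vehicle BPH/2J kidneys. It was 5.22 to 10.2 CPM in the other 4 treated BPN/3J kidneys and 3.39 to 11.2 CPM in the other 3 vehicle BPN/3J kidneys. In bulk RNA, fewer cells of a type and less RNA per cell cannot be told apart.

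**Figure D1:**
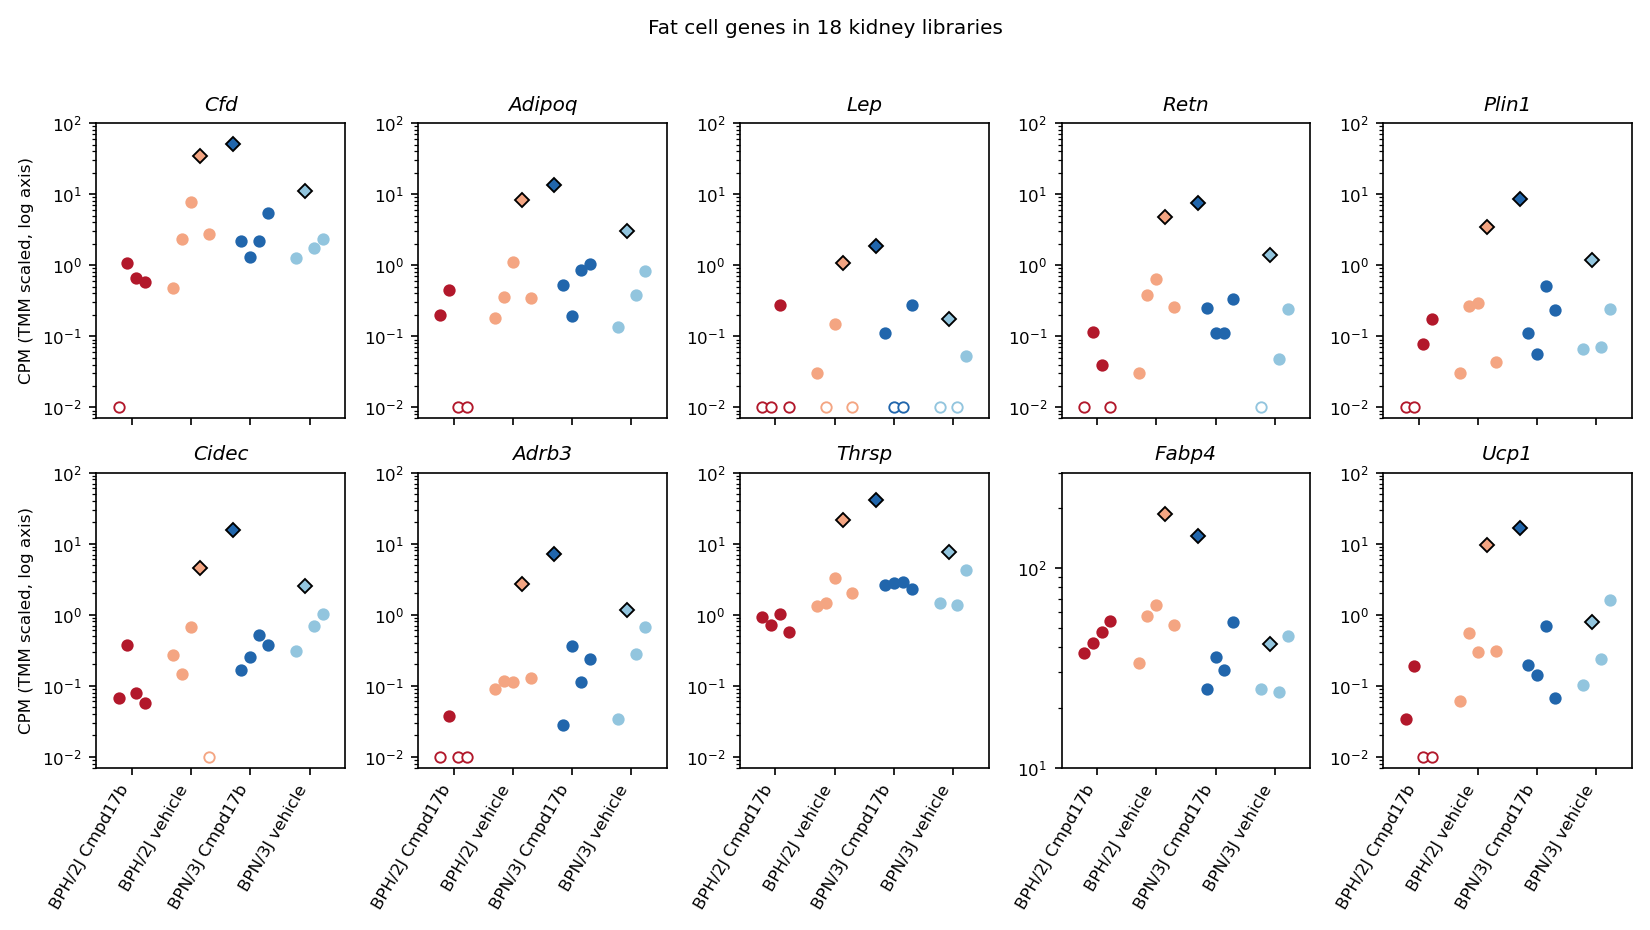
Level of each fat cell gene in every library in CPM after TMM scaling, on log axes, with Fabp4 on its own range. Each point is 1 mouse, groups run from left to right as labelled, open circles at the bottom are libraries with a count of 0, and black-edged diamonds mark BPH/2J vehicle replicate 4, BPN/3J Cmpd17b replicate 1 and BPN/3J vehicle replicate 2. Adipoq reached 13.6 CPM in BPN/3J Cmpd17b replicate 1 and was at most 0.454 CPM in treated BPH/2J kidneys.

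Among the secreted products, Cfd encodes adipsin (complement factor D), a protease of the alternative complement pathway that mouse fat cells secrete. It had 0, 1.06, 0.661 and 0.576 CPM in treated BPH/2J kidneys (replicates 2 to 5), against 0.483, 2.31, 7.65, 35.0 and 2.72 CPM in vehicle BPH/2J kidneys (replicates 1 to 5). In BPN/3J kidneys it had 50.6, 2.21, 1.31, 2.22 and 5.36 CPM with Cmpd17b, against 1.28, 11.2, 1.77 and 2.33 CPM with vehicle. Within every group but the treated BPH/2J one, a single mouse carried most of the adipsin RNA. Treated BPH/2J mice lay below every treated BPN/3J mouse but overlapped vehicle BPH/2J replicate 1.

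Adipoq encodes adiponectin, an insulin-sensitising hormone. It had 0.201, 0.454, 0 and 0 CPM in treated BPH/2J kidneys and 0.181, 0.351, 1.12, 8.40 and 0.346 CPM in vehicle BPH/2J kidneys. With Cmpd17b, BPN/3J kidneys had 13.6, 0.525, 0.195, 0.849 and 1.05 CPM, against 0.134, 3.05, 0.377 and 0.830 CPM with vehicle. The highest value was 32.7 times the median of the 18 libraries, which was 0.415 CPM. All 4 groups overlapped.

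Lep, encoding the satiety hormone leptin, was at 0 in 9 of the 18 libraries and reached 10 counts in 2. It had 7 counts in treated BPH/2J libraries together, all in replicate 4, and 43 counts in vehicle BPH/2J libraries, of which 38 were in replicate 4. In BPN/3J Cmpd17b replicate 1 it had 58 counts, or 1.84 CPM. Retn encodes resistin. It reached 0.113 CPM at most in treated BPH/2J kidneys, against 0.0302 to 4.81 CPM in vehicle BPH/2J kidneys. The BPN/3J range was 0.111 to 7.51 CPM with Cmpd17b, against 0 to 1.38 CPM with vehicle. Above 1 CPM, Retn was found only in the 3 libraries named above.

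Plin1 and Cidec encode proteins of the lipid droplet surface: perilipin 1 guards stored fat from lipases and Cidec enlarges droplets by fusing them. Plin1 ran from 0 to 0.173 CPM in treated BPH/2J kidneys and from 0.0302 to 3.43 CPM in vehicle BPH/2J kidneys. In BPN/3J kidneys Plin1 ran from 0.0558 to 8.58 CPM with Cmpd17b and from 0.0672 to 1.17 CPM with vehicle. Cidec ran from 0.0576 to 0.378 CPM in treated BPH/2J kidneys and from 0 to 4.52 CPM in vehicle BPH/2J kidneys. In BPN/3J Cmpd17b replicate 1 it had 15.6 CPM, or 46.2 times its median, whereas the other treated BPN/3J mice had at most 0.517 CPM. Vehicle BPN/3J kidneys had 0.302, 2.49, 0.683 and 1.02 CPM of Cidec.

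Adrb3 encodes the beta-3 adrenergic receptor, through which sympathetic nerves switch on fat breakdown. It had 1 count in the 4 treated BPH/2J libraries together, against 110 counts in the 5 vehicle BPH/2J libraries. Of those, 97 were in replicate 4, and the other 4 mice had 0.0906, 0.117, 0.112 and 0.130 CPM. Treated BPN/3J kidneys had 7.10, 0.0276, 0.363, 0.111 and 0.238 CPM, against 0.0336, 1.17, 0.283 and 0.670 CPM in vehicle BPN/3J kidneys. Against the 13 counts of the other 4 vehicle BPH/2J mice, the ratio of pooled levels was 0.0907 (exact 95% interval 0.00213 to 0.604, counting error only). This ratio is a description and its interval is no test, since Adrb3 was noticed as low in these treated libraries and had 1 count in them.

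Thrsp encodes a nuclear protein that promotes fatty acid synthesis in fat and liver. It was detected in every library and had 0.936, 0.719, 1.01 and 0.576 CPM in treated BPH/2J kidneys, against 1.33, 1.44, 3.24, 21.8 and 1.99 CPM in vehicle BPH/2J kidneys. BPN/3J kidneys had 40.8, 2.57, 2.79, 2.84 and 2.31 CPM with Cmpd17b, against 1.48, 7.59, 1.37 and 4.20 CPM with vehicle. Treated BPH/2J mice were below every mouse of the other 3 groups. The other 4 treated BPN/3J mice were close together, at 2.31 to 2.84 CPM.

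Fabp4 was abundant in all kidneys and behaved apart from the rest. It had 37.3, 42.1, 47.9 and 54.0 CPM in treated BPH/2J kidneys, against 33.3, 57.6, 65.0, 185 and 51.6 CPM in vehicle BPH/2J kidneys. BPN/3J kidneys had 144, 24.7, 35.7, 30.7 and 53.9 CPM with Cmpd17b, against 24.8, 41.8, 23.8 and 45.4 CPM with vehicle. The 3 libraries held 40.5% of its counts, and BPN/3J vehicle replicate 2 ranked only 11th. Its highest value was 4.24 times the median of the 18 libraries, the smallest such ratio among the members.

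Ucp1 marks brown and beige fat cells. It had 0.0334, 0.189, 0 and 0 CPM in treated BPH/2J kidneys, against 0.0604, 0.556, 0.298, 9.56 and 0.303 CPM in vehicle BPH/2J kidneys. With Cmpd17b, BPN/3J kidneys had 16.5, 0.194, 0.140, 0.701 and 0.0679 CPM, against 0.101, 0.791, 0.236 and 1.61 CPM with vehicle. The 2 highest libraries alone held 83.1% of all Ucp1 counts. For Ucp1, BPN/3J vehicle replicate 2 lay below vehicle replicate 4 of the same strain.

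The make-up of the signal was compared between the 3 libraries by setting each member's count against the Adipoq count of the same library, with exact 95% intervals that cover counting error only. Cfd stood at 4.16 times Adipoq in BPH/2J vehicle replicate 4 (3.66 to 4.74), 3.72 times in BPN/3J Cmpd17b replicate 1 (3.34 to 4.15) and 3.68 times in BPN/3J vehicle replicate 2 (2.96 to 4.62). Retn was likewise alike across them, at 0.572, 0.552 and 0.452 times Adipoq in the same order, with overlapping intervals. Ucp1 differed: it was at 1.14 (0.971 to 1.33) and 1.21 (1.06 to 1.38) times Adipoq in the first pair but at 0.260 (0.163 to 0.400) in BPN/3J vehicle replicate 2. Cidec was at 0.538 (0.442 to 0.654) in BPH/2J vehicle replicate 4, against 1.15 (1.01 to 1.31) in BPN/3J Cmpd17b replicate 1 and 0.817 (0.606 to 1.10) in BPN/3J vehicle replicate 2. In the first pair the intervals lay apart for 3 more members. Fabp4 was at 22.0 (19.6 to 24.8) and 10.6 (9.60 to 11.7) times Adipoq in BPH/2J vehicle replicate 4 and BPN/3J Cmpd17b replicate 1, Adrb3 at 0.324 (0.255 to 0.409) and 0.522 (0.442 to 0.615), and Plin1 at 0.408 (0.328 to 0.505) and 0.632 (0.541 to 0.737). With 1 mouse each, these are differences between libraries and not between groups.

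**Figure D2:**
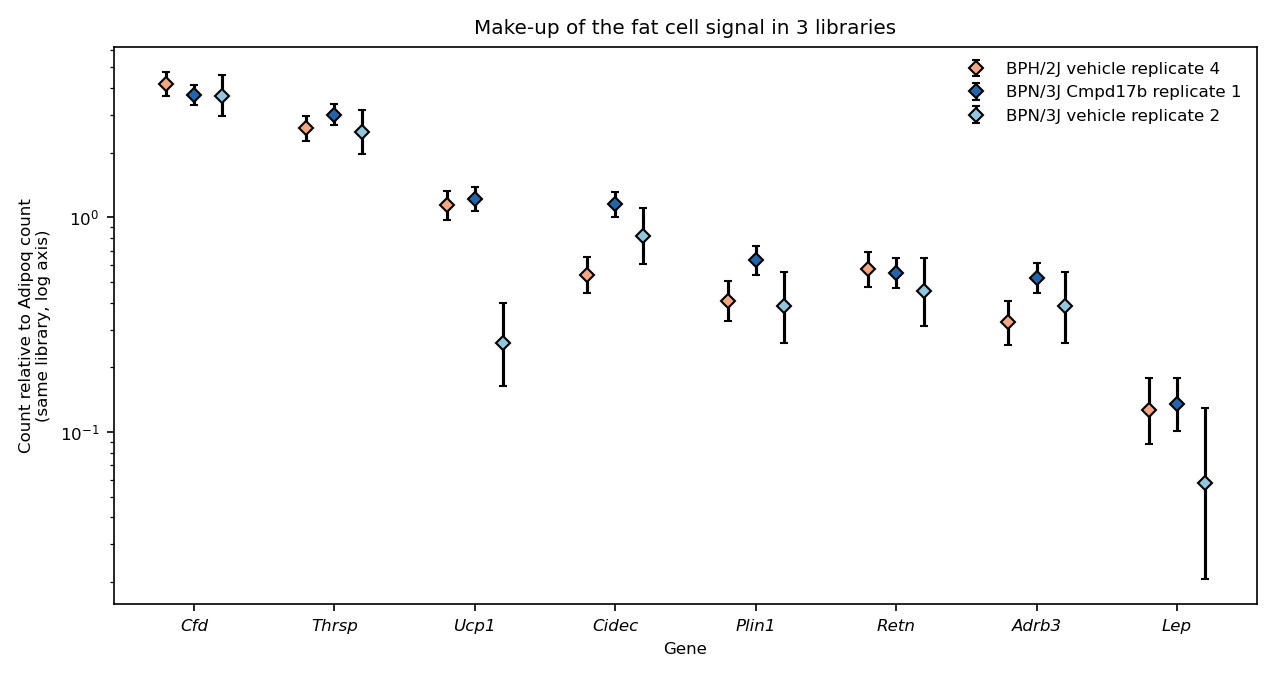
Count of 8 members relative to the Adipoq count of the same library, on a log axis, for BPH/2J vehicle replicate 4, BPN/3J Cmpd17b replicate 1 and BPN/3J vehicle replicate 2, with exact 95% intervals for counting error. Cfd and Retn lay at similar ratios in the 3 libraries, and Ucp1 lay at 0.260 in BPN/3J vehicle replicate 2, against 1.14 and 1.21 in the other pair.

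Markers of other tissues also lay above the range of the other 15 libraries in 2 of these 3, but not all the same ones in each. Urothelium genes (5 of 5 detected), which line the renal pelvis, summed to 54.8 CPM in BPH/2J vehicle replicate 4, to 2.03 CPM in BPN/3J Cmpd17b replicate 1 and to 7.74 CPM in BPN/3J vehicle replicate 2. Elsewhere that sum was 0.634 to 3.86 CPM in treated BPH/2J, 2.33 to 4.62 CPM in vehicle BPH/2J, 0.968 to 6.45 CPM in treated BPN/3J and 1.12 to 4.30 CPM in vehicle BPN/3J libraries. The same BPH/2J vehicle library had the lowest proximal tubule sum of all 18, 3936 CPM against 5416 CPM or more. It was also highest of 18 for collecting duct and thick limb genes (4405 CPM, against 1621 to 3823 CPM in the other 15) and for mesothelium genes (9.95 CPM, against 2.00 to 7.53 CPM). Adrenal cortex genes (6 of 6 detected) summed to 13.0 CPM in BPN/3J vehicle replicate 2, against 0.634 to 2.07 CPM in every other library. In BPN/3J Cmpd17b replicate 1 no list of another tissue lay above the range of the other 15, and its proximal tubule sum was 6947 CPM. Genes of adipose stromal cells (6 of 6 detected), the connective tissue cells of fat that are also found in other organs, summed to 593 CPM in BPH/2J vehicle replicate 4, to 424 CPM in BPN/3J Cmpd17b replicate 1, the lowest of 18, and to 492 CPM in BPN/3J vehicle replicate 2, against 425 to 702 CPM in the other 15. No gene of these lists was at 0 in all libraries. Their part in the differences given here was not tested.

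**Figure D3:**
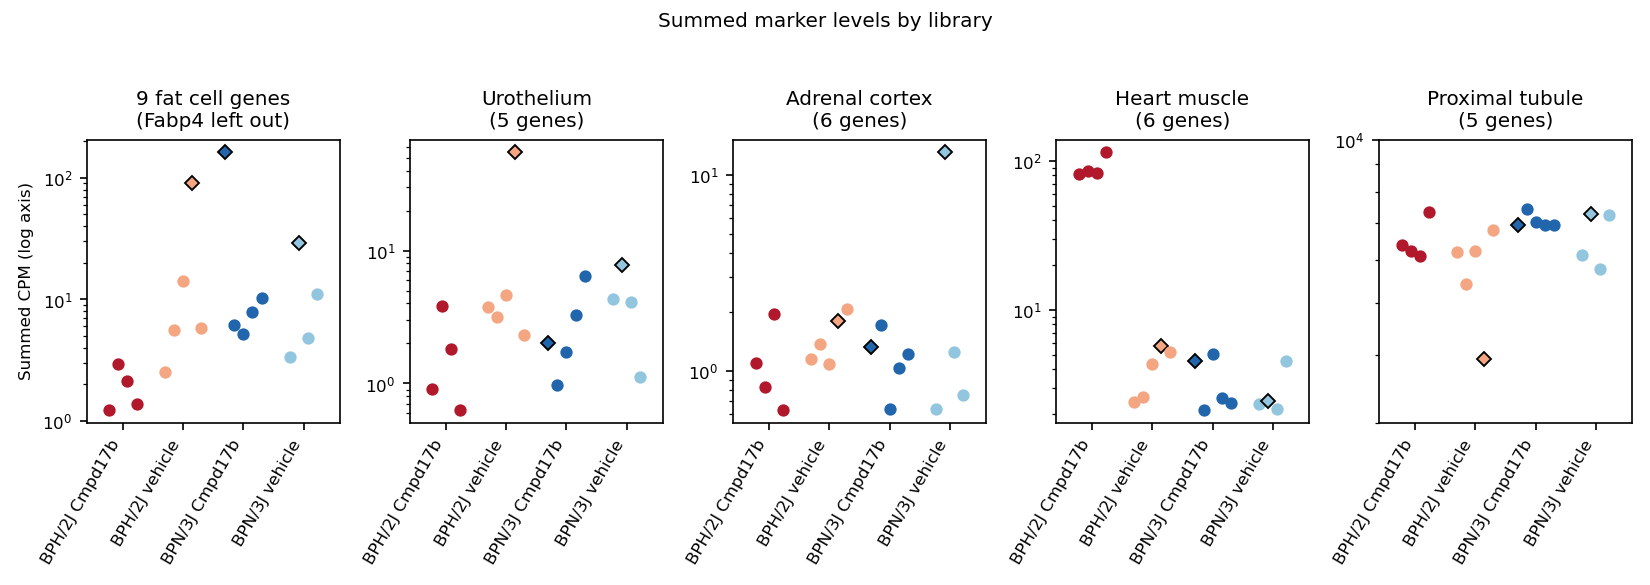
Summed CPM per library, on log axes, of the 9 fat cell genes without Fabp4 and of fixed lists of urothelium, adrenal cortex, heart muscle and proximal tubule genes. Points and diamonds are as in the plot of single members. The fat cell sum was highest in BPN/3J Cmpd17b replicate 1 (162 CPM), the urothelium sum in BPH/2J vehicle replicate 4 (54.8 CPM) and the adrenal cortex sum in BPN/3J vehicle replicate 2 (13.0 CPM), while heart muscle genes were high in all treated BPH/2J libraries.

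The strain difference under vehicle compares 2 groups other than those in which the members were noticed. All 18 libraries entered the same fit, however, so the treated libraries still shaped its filter and its estimate of spread. None of the 9 members that passed the filter on low counts was called in BPH/2J against BPN/3J under vehicle, where 10.8% of the 16421 genes tested were called (edgeR quasi-likelihood test, adjusted p under 0.05). Lep did not pass the filter. In a fit of the vehicle groups alone, 0 of 7 tested members were called, beside 1476 of 15716 genes. Fabp4 averaged 78.5 ± 60.8 CPM in BPH/2J (SD, n = 5) and 33.9 ± 11.2 CPM in BPN/3J (SD, n = 4), a log2 fold change of 1.21 (SE 0.50, adjusted p = 0.139 by edgeR with Benjamini-Hochberg adjustment). Without BPH/2J vehicle replicate 4 that log2 fold change was 0.61. The other 8 tested members had log2 fold changes between 0.03 (Cidec, SE 1.25) and 1.66 (Ucp1, SE 1.46), with adjusted p between 0.517 (Retn) and 0.990 (Cidec) in the same edgeR fit. Without BPH/2J vehicle replicate 4, 7 of these 8 were negative, among them Cfd at -0.34, Adipoq at -1.14, Ucp1 at -1.16 and Adrb3 at -2.24, and Plin1 did not pass the filter. Cidec and Adrb3, the nearest to 0 of the 8, also turned without single BPN/3J vehicle libraries. Without BPN/3J vehicle replicate 2, Cfd was at 2.42, Adipoq at 2.20, Ucp1 at 1.73 and Adrb3 at 0.95.

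Within BPH/2J, Cmpd17b was compared with vehicle. This comparison shares its treated libraries with the contrast in which the members were noticed, so the members' values are a description. It called 0.164% of genes, all higher with Cmpd17b, among them all 6 listed heart muscle genes. Thrsp averaged 0.811 ± 0.199 CPM with Cmpd17b (SD, n = 4) and 5.96 ± 8.89 CPM with vehicle (SD, n = 5), a log2 fold change of -2.86 (SE 1.12). Without vehicle replicate 4 it was -1.27. Estimates for the other 8 tested members were all negative, from -0.79 (Fabp4, SE 0.49) to -5.54 (Adrb3, SE 2.25). Fitted values of members with almost no counts in treated BPH/2J libraries depend on the prior count: besides the single count of Adrb3, these libraries held 5 counts of Plin1, 4 of Retn and 6 of Ucp1. In the raw levels, 2 of the 9 tested members, Thrsp and Adrb3, lay lower in every treated than in every vehicle BPH/2J mouse, a pattern found in 0.481% of all genes tested. Nothing is read from that share, since both were noticed as low in these treated libraries, and the place of Adrb3 rests on 1 count in them. For Cfd the pooled level in treated BPH/2J was 0.179 times that in the 4 vehicle mice other than replicate 4 (exact 95% interval 0.132 to 0.238, counting error only), for Adipoq 0.379 times (0.210 to 0.654) and for Fabp4 0.863 times (0.830 to 0.898). It was 0.553 times for Cidec (0.278 to 1.05) and 1.65 times for Lep (0.451 to 6.59), and both of these intervals included equal levels. All these intervals leave out the spread between mice.

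In the contrast in which the members were noticed, treated BPH/2J against treated BPN/3J, 10.4% of all genes were called. The members' log2 fold changes ran from -0.35 (Fabp4) to -6.80 (Adrb3). Cfd and Thrsp were lower in every treated BPH/2J than in every treated BPN/3J mouse, also in the 4 other than replicate 1, a pattern that 6.37% of genes tested shared and from which nothing is read here. Cmpd17b against vehicle in BPN/3J gave log2 fold changes from 0.77 (Fabp4) to 2.35 (Ucp1), where no gene was called (0.0% of 16421 by edgeR, 415 at an unadjusted p under 0.05, 6 by DESeq2 and 0 by limma-voom). Without the 3 libraries the 2 groups overlapped for every member, and the means did not all point one way. Cfd then ran from 1.31 to 5.36 CPM in treated BPN/3J and from 1.28 to 2.33 CPM in vehicle BPN/3J mice. Retn averaged 0.203 CPM with Cmpd17b and 0.0960 CPM with vehicle, and Plin1 averaged 0.230 CPM with Cmpd17b and 0.126 CPM with vehicle (n = 4 and 3). The order was the other way for Cidec, at 0.327 CPM with Cmpd17b and 0.668 CPM with vehicle, for Adrb3, at 0.185 CPM with Cmpd17b and 0.329 CPM with vehicle, and for Ucp1, at 0.276 CPM with Cmpd17b and 0.648 CPM with vehicle. The interaction of strain and compound called 0.0304% of genes, and 4 of these 5 genes were listed heart muscle genes.

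Further fat cell genes were taken from 8 lists (secreted products, lipid droplet, lipolysis, lipogenesis, fatty acid uptake, transcription factors, fat-restricted and brown fat genes) holding 65 genes, of which 54 were tested. Under vehicle, 3 of them were higher in BPH/2J and 2 lower, against 5.82% of all genes higher and 4.94% lower. Under Cmpd17b, 1 was higher and 4 lower in BPH/2J, against 5.71% and 4.65% of all genes. No gene of these lists was called for Cmpd17b in either strain or for the interaction. The median log2 fold change over the 54 was 0.10 for the strain difference under vehicle, beside 0.04 over all genes, and -0.18 under Cmpd17b, beside 0.01.

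Pparg, the master regulator of fat cell differentiation, had 0.288 to 1.14 CPM in treated BPH/2J kidneys, against 3.29 to 5.23 CPM in treated BPN/3J kidneys. The difference was -2.10 on the log2 scale (SE 0.46, adjusted p = 0.00533 by edgeR), and it was -1.96 without the 3 libraries high in fat cell genes. Under vehicle Pparg had 0.485 to 4.27 CPM in BPH/2J kidneys, the highest in replicate 4, against 3.52 to 4.85 CPM in BPN/3J kidneys, and its strain difference was called without the 3 libraries (log2 fold change -1.96) but not with them (-1.22, SE 0.42, adjusted p = 0.0729 by edgeR). Cebpa, which encodes a transcription factor that acts with Pparg, averaged 24.8 ± 4.52 CPM in treated BPH/2J and 43.6 ± 8.87 CPM in treated BPN/3J kidneys (SD, n = 4 and 5), and was lower in BPH/2J under both treatments. Pcx, encoding the mitochondrial enzyme pyruvate carboxylase, averaged 324 ± 16.4 CPM in treated BPH/2J and 501 ± 25.3 CPM in treated BPN/3J kidneys (SD, n = 4 and 5), and it too was lower in BPH/2J under both treatments. These 3 genes are also expressed in kidney tubules or many other tissues.

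Lgals12, encoding a galectin of the fat droplet, had 0 to 0.156 CPM in treated BPH/2J kidneys, against 0.194 to 2.22 CPM in treated BPN/3J kidneys. It was called at a log2 fold change of -3.17 (SE 0.92, adjusted p = 0.0326 by edgeR). Fat cell genes had been noticed as low in this contrast, so this p, like that of Pparg in it, is a description. Lgals12 was called neither without the 3 libraries, where it was at -1.85, nor with the level of the 9 members without Fabp4 as a covariate. Of all 1701 genes called in this contrast, these fits kept 1329 and 1168. G0s2, encoding an inhibitor of the lipase ATGL, was higher in BPH/2J under both treatments, at 35.8 ± 13.7 CPM in BPH/2J and 17.8 ± 3.74 CPM in BPN/3J with Cmpd17b (SD, n = 4 and 5). Angptl4, encoding an inhibitor of lipoprotein lipase, was higher in BPH/2J under vehicle, at 27.2 to 38.7 CPM in BPH/2J (mean 32.1, n = 5) and 11.6 to 26.3 CPM in BPN/3J (mean 15.9, n = 4). Fabp5, encoding another fatty acid binding protein, was higher as well, at 8.85 ± 4.54 CPM in BPH/2J and 4.19 ± 0.966 CPM in BPN/3J (SD, n = 5 and 4). Under vehicle none of Angptl4, G0s2, Fabp5 and Cebpa was called without the 3 libraries. Of all 1766 genes called for strain under vehicle, 934 were kept in that fit. Such losses were common, and nothing is read from these.

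To see which other genes followed the fat cell genes from mouse to mouse, the slope of each gene on the log2 summed level of the 9 members without Fabp4 was fitted with the 4 groups as terms. The slope was called for 22 of 16421 genes (0.134%; edgeR adjusted p under 0.05), all with positive slopes. These were the 9 tested members, most of which make up the level and so are no finding, and 13 others (0.0792% of 16412 other genes). The 13 were Cidea, Slc36a2, Mrap, Trarg1, Cox8b, Pnpla3, Hk2, Arxes2, Car3, Fasn, Nat8l, Ntrk2 and Abcd2. Of these, 5 are in the fat cell lists: Cidea, Cox8b, Mrap, Car3 and Fasn. The calls rest on the 3 libraries. Without BPN/3J Cmpd17b replicate 1, 13 genes were called, of which 9 were among the 22: 8 members and Cidea, the only one of the further genes that remained. Mrap and the member Plin1 did not pass the filter there and were not tested. The other 4 were Adh7, Gsta4, Psca and Sprr1a. Without BPH/2J vehicle replicate 4, 15 genes were called, of which 14 were among the 22, and without all 3 libraries 0 were.

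Cidea is a droplet protein abundant in brown fat. It had at most 0.167 CPM in treated BPH/2J kidneys, against 0.212, 0.176, 1.19, 7.11 and 0.475 CPM in vehicle BPH/2J kidneys. BPN/3J kidneys had 14.9, 0.111, 0.140, 0.554 and 0.645 CPM with Cmpd17b, against 0.538, 2.23, 0.377 and 1.63 CPM with vehicle. The same 3 libraries were highest as for most members. Its slope was 1.14 (SE 0.094, adjusted p = 3.82e-06 by edgeR), in log2 units of Cidea per log2 unit of the fat level. Fasn encodes fatty acid synthase, which many tissues make. It stood at 82.1 CPM in BPH/2J vehicle replicate 4, at 218 CPM in BPN/3J Cmpd17b replicate 1 and at 68.1 CPM in BPN/3J vehicle replicate 2, against 33.4 to 52.4 CPM in all other libraries. Its slope was shallower, at 0.33 (SE 0.055, adjusted p = 0.0126 by edgeR). Pnpla3, a lipid droplet enzyme, had 2.64, 7.92 and 1.93 CPM in the same 3 libraries, against at most 1.18 CPM elsewhere. Trarg1, a regulator of glucose transporter traffic, had 2.81, 4.43 and 1.58 CPM in them, against 0.468 to 1.66 CPM elsewhere, so BPN/3J vehicle replicate 2 did not stand out. Arxes2 has a near-identical neighbour, so its reads may be shared.

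**Figure D4:**
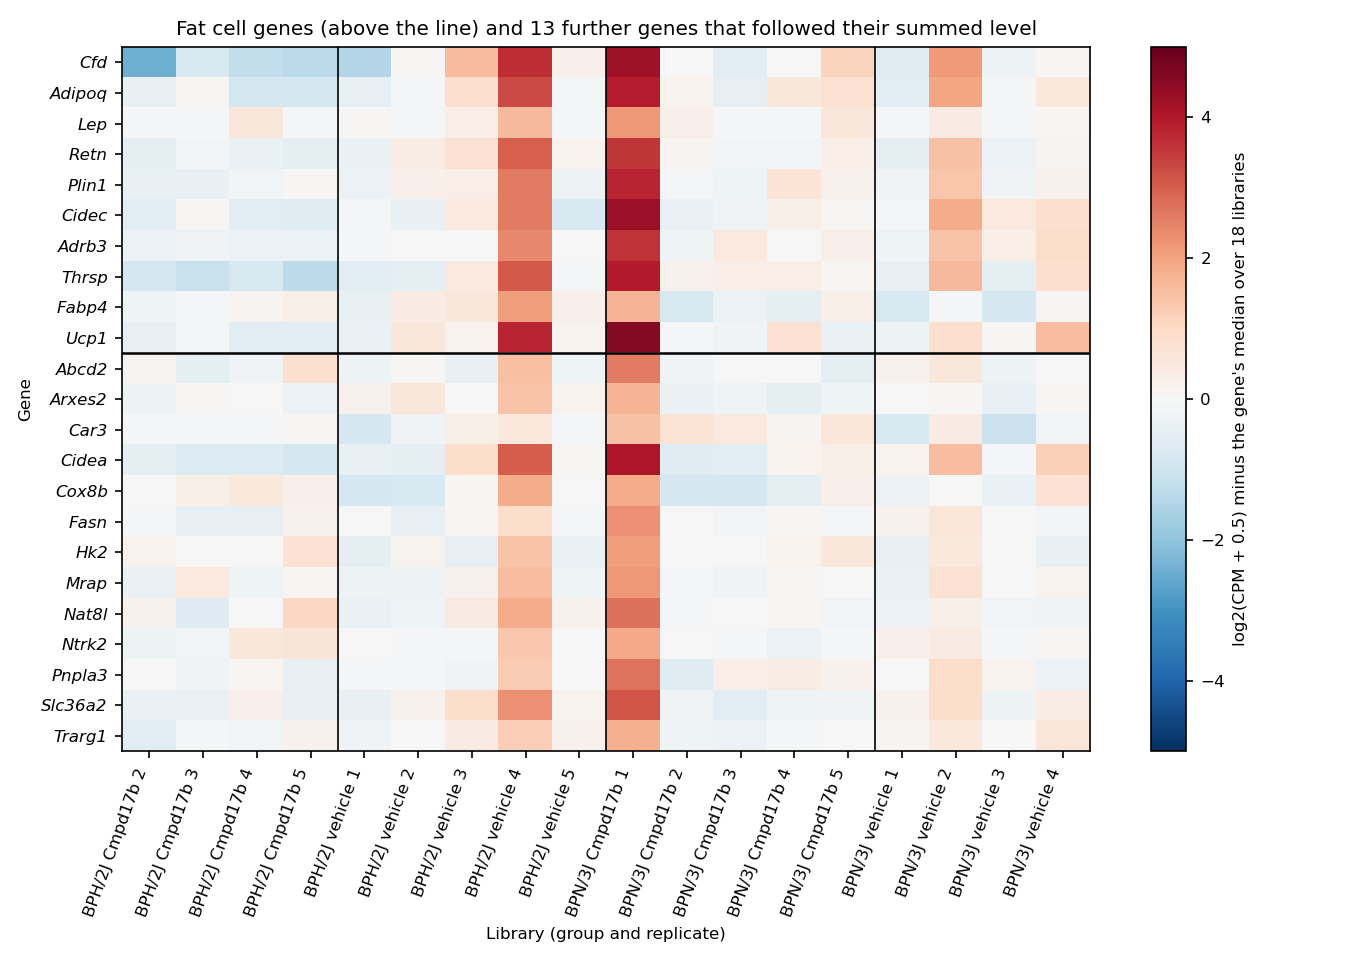
Level of the 10 fat cell genes (above the line) and of 13 further genes whose slope on the fat level was called, in each of 18 libraries, as log2(CPM + 0.5) minus the gene's median over the libraries. BPH/2J vehicle replicate 4 and BPN/3J Cmpd17b replicate 1 stood above the median for all 23 genes, and in treated BPH/2J libraries Cfd and Thrsp lay below it.

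By Pearson correlation of log2 levels with the summed level of all 10 members over 18 libraries, the most alike genes were Arxes2 (r = 0.890), Trarg1 (0.884), Cidea (0.868), Cox8b (0.843), Aoc3 (0.826), Stom (0.826), Cavin1 (0.820), Hk2 (0.814), B3galt2 (0.805) and Kcnk3 (0.802). All libraries share their depth scaling, and 2 of them set most of the range. Without BPN/3J Cmpd17b replicate 1, the 10 most alike were S100a6, Abcc3, Cdh13, Dcn, Tnfrsf11a, Cldn15, Sfn, Ltbp1, Cxcl14 and Emc1 (r between 0.820 and 0.903), none of them shared with the first 10. With Fabp4 left out of the sum, Cidea came first (r = 0.951), and 3 of the first 10 were shared. Over 17 libraries with Fabp4 left out, the urothelium genes Upk1b, Upk3a and Upk1a stood among the first 10, beside the high urothelium sum of BPH/2J vehicle replicate 4.

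The genes called in the comparisons were set against the fat level. None of the 13 further genes with a called slope was among the 1766 genes called for strain under vehicle, the 1701 called for strain under Cmpd17b, the 27 called for Cmpd17b in BPH/2J or the 5 called for the interaction. With so few called slopes (0.134% of all genes), little overlap could be seen at all. With the level of all 10 members as a covariate, 1211 genes were called for strain under vehicle and 1731 under Cmpd17b, of which 1192 and 1600 were among those called without it. With Fabp4 left out of the covariate, the counts were 1643 under vehicle and 1274 under Cmpd17b, with 1617 and 1168 kept. Both strain comparisons lost genes under both covariates: more were lost under vehicle with Fabp4 in the sum, and more under Cmpd17b (533 genes) without it. The level without Fabp4 did not overlap between treated BPH/2J (1.24 to 2.95 CPM) and treated BPN/3J kidneys (5.22 to 162 CPM). That covariate is therefore tied to strain under Cmpd17b, and calls can be lost to it whatever fat contributed. The level of all 10 members was also unequal between the vehicle groups, at a mean of 102 CPM in BPH/2J and 46.0 CPM in BPN/3J, with overlapping ranges. Calls for strain under vehicle can be lost to it in the same way. The part of fat in the lost calls was not tested.

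Libraries were also left out of the fits. Without the 3 libraries, 969 genes were called for strain under vehicle (934 of them among the 1766) and 1463 under Cmpd17b (1329 among the 1701). Without BPN/3J Cmpd17b replicate 1 alone, 1481 genes were called for strain under Cmpd17b, against 1290, 1295, 1405 and 1639 without replicates 2, 3, 4 and 5 of that group. Leaving out the library highest in fat cell genes cost fewer calls than leaving out 3 of the other 4 of its group. Such counts also change with group size and spread, and what its fat cell RNA contributed was not tested. Without BPN/3J vehicle replicate 2, 1277 were called for strain under vehicle, against 1226, 1243 and 1464 without replicates 1, 3 and 4. Without BPH/2J vehicle replicate 4 there were 1391, against 1505 to 2037 without the other members of that group. For Cmpd17b in BPH/2J, 27 genes were called with all 18 libraries and 19 without the 3, all of them among the 27. The 27 included all 6 listed heart muscle genes, and the part of heart muscle RNA in these calls was not tested.

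Of the genes called for strain under Cmpd17b but not without BPN/3J Cmpd17b replicate 1 (307 genes), those most like the members were Tspan18 (r = 0.597), Septin4 (0.457), Unc13d (0.369), Ptbp1 (0.352), Slfn5 (0.350) and Cdc42ep4 (0.349). Tspan18, a tetraspanin of the cell membrane, had a log2 fold change of -0.84 in BPH/2J. Its r was 0.822 with the level without Fabp4, and it was also among the 533 genes lost with that level as covariate. Both Tspan18 and that level were lower in treated BPH/2J than in treated BPN/3J kidneys, and r was taken without group terms. The r and the loss can therefore follow from the strain difference itself. With the groups as terms, the slope of Tspan18 was not called. Of those lost with the 10-member covariate (101 genes), Unc13d, Cdc42ep4, Sgk1, Zbtb11, Fastkd5 and Tob2 had the highest r, from 0.213 to 0.369. Sgk1, a kinase that promotes sodium uptake in the kidney, had an r of 0.238 with the fat level. Whether attached fat contributed to any single call was not tested.

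**Figure D5:**
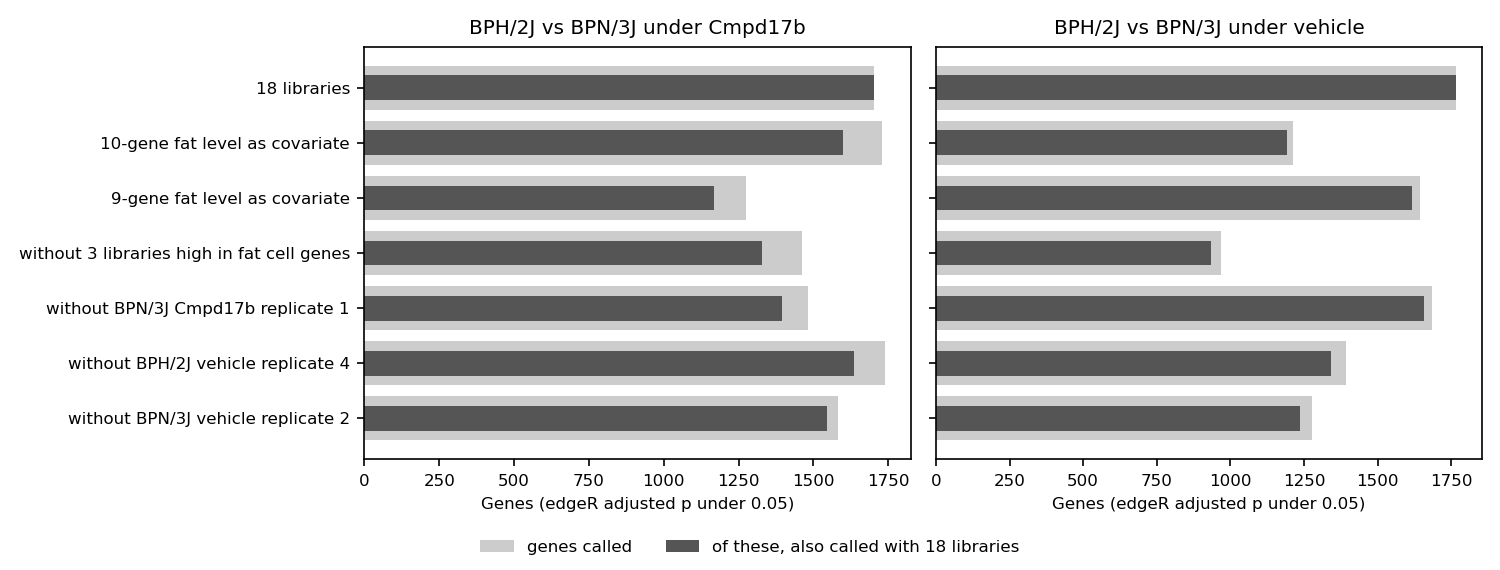
Number of genes called for BPH/2J against BPN/3J under Cmpd17b (left) and under vehicle (right), with 18 libraries, with the fat level as a covariate and without libraries. Light bars give the genes called and dark bars those also called with 18 libraries without a covariate; without the 3 libraries high in fat cell genes, 1463 were called under Cmpd17b and 969 under vehicle.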

How the data were processed

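The authors deposited 1 table of estimated counts per gene and library. Values that were not whole made up 4.63% to 10.1% of a library, so all were rounded before testing. The submitters' processing notes name Trim Galore 0.6.7, STAR 2.7.9a and the genome build mm39 (GRCm39). How reads were assigned to genes, and with which annotation, is not given in the sources used here.

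Differential expression was tested with edgeR 4.0.16 under R 4.3.3 (TMM scaling, filterByExpr with a minimum count of 10, robust quasi-likelihood test, Benjamini-Hochberg adjustment over all genes tested, threshold 0.05), with the 4 groups in 1 fit and no covariate. Values are CPM on the TMM scale. Replicates are single mice, and replicate numbers follow accession order. The members, the lists and the design were chosen with earlier results of these data known. The slope on the fat level, the covariate without Fabp4 and the fits without 3 libraries were chosen after seeing the data. Genes named besides the members were the called genes of the fat cell lists, the 10 most like the members with and without BPN/3J Cmpd17b replicate 1 (of 13309 whose log2 CPM averaged 0 or more), and the 6 of the lost calls most like the members. Genes with a called slope, and those most alike with Fabp4 left out, were named after their values were seen. Alternatives were DESeq2 1.42.0, limma-voom (limma 3.58.1), other scaling and filters, fits of the compared groups only, not robust fits, all 19 libraries and leaving out each library. Promoters came from RefSeq (GRCm38.p6), and no coordinate was converted. Figures used matplotlib 3.10.9.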

Additional observations from a re-analysis of the deposited data

Results flagged for a closer look

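In the 40 sets of 1 member in 1 group, 25 single libraries stood apart from the others of their group by the gap criterion of Dixon's test, which chance meets in about 1 of 20 sets of normal values. The members were high together in the same libraries, so the 40 sets are not independent and the 25 cannot be weighed against that rate. CPM of genes with few counts are also skewed, so that rate is only a guide. The sets of BPN/3J Cmpd17b replicate 1 in part restate the high library seen when the members were noticed. BPH/2J vehicle replicate 4 and BPN/3J Cmpd17b replicate 1 each stood apart for all 10 members. The values of BPH/2J vehicle replicate 4 were 35.0 CPM of Cfd, 21.8 of Thrsp, 8.40 of Adipoq, 4.52 of Cidec and 2.73 of Adrb3. It further had 3.43 CPM of Plin1, 185 of Fabp4, 1.07 of Lep, 4.81 of Retn and 9.56 of Ucp1. BPN/3J Cmpd17b replicate 1 had 50.6 CPM of Cfd, 40.8 of Thrsp, 13.6 of Adipoq, 15.6 of Cidec and 7.10 of Adrb3. It further had 8.58 CPM of Plin1, 144 of Fabp4, 1.84 of Lep, 7.51 of Retn and 16.5 of Ucp1. BPN/3J vehicle replicate 2 stood apart for Cfd (11.2 CPM) and Plin1 (1.17 CPM). At the low end of counting, BPH/2J Cmpd17b replicate 3 stood apart for Cidec (0.378 CPM) and for Adrb3 (0.0378 CPM, a single count), and replicate 4 of that group for Lep (0.272 CPM, 7 counts).

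The library labelled BPH/2J Cmpd17b replicate 1, left out of the comparisons, had 51.4 CPM of Thrsp and 586 CPM of Fabp4 before TMM scaling, above the highest vehicle BPH/2J library (21.8 and 185 CPM). Its Adipoq level was 0.226 CPM, its Cfd level 0.582 CPM and its Ucp1 count 0, all lower than in BPH/2J vehicle replicate 4. It had 14200 CPM of the heart muscle gene Myh6 and 5.94 CPM of the proximal tubule gene Slc34a1. The source of its Thrsp and Fabp4 was not tested.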

How the results depend on the processing

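Across the alternatives, 140 counts of called genes stayed within 1.5 times the main count, or at 0 where that was 0. A further 21 were lower and 3 were higher. Many of the lower counts were for the interaction, which had only 5 calls in the main fit. With all 19 libraries, 566 genes were called for strain under vehicle, 0 for Cmpd17b in BPH/2J and 0 for the interaction. Without the 3 libraries, 969 were called for strain under vehicle, 3 for the interaction and 0 for the slope. DESeq2 called 41 genes for Cmpd17b in BPH/2J, 6 for Cmpd17b in BPN/3J and 15 for the interaction. Leaving out each library gave 1226 to 2490 calls for strain under vehicle, 1290 to 1749 under Cmpd17b, 21 to 30 for Cmpd17b in BPH/2J, 1 to 6 for the interaction and 13 to 31 for the slope, with 13 without BPN/3J Cmpd17b replicate 1. Of the 10 genes most like the members, 0 were shared without that library, 3 with Fabp4 left out and 2 with both changes. The causes were not tested.

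The log2 fold change of a member turned its direction in 19 refits, most of them for strain under vehicle. Without BPH/2J vehicle replicate 4 these were Cfd -0.34, Thrsp -0.88, Adipoq -1.14, Cidec -2.02, Adrb3 -2.24, Retn -0.35 and Ucp1 -1.16. Without the 3 libraries they were Thrsp -0.24, Cidec -1.29 and Ucp1 -1.08. Cidec was at -0.0082 by DESeq2, -1.31 by limma-voom and -0.28, -0.15 and -0.016 without BPN/3J vehicle replicates 1, 3 and 4. Adrb3 was at -0.46 by limma-voom and -0.11 without BPN/3J vehicle replicate 1. The highest values when leaving out a library were Cfd 2.42, Thrsp 1.35, Adipoq 2.20, Cidec 0.76, Adrb3 0.95 and Retn 3.59, all without BPN/3J vehicle replicate 2, and Ucp1 2.52 without BPN/3J vehicle replicate 4. For Cmpd17b in BPH/2J, only the fit of all 19 libraries turned a member, with Thrsp at 1.23 and Fabp4 at 1.27. No paired analysis was possible because replicate numbers follow accession order and each mouse appears once. At this depth 5 of the 10 members reached 10 counts in fewer than 9 libraries, so their order among the low mice was not detectable.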
